A study of Drosophila melanogaster with 18 samples.

Results

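Nuclear pore complex genes encode the proteins (nucleoporins) that build the channels through the nuclear envelope. The genes described here were taken from the deposited gene table by symbol: every symbol that begins with Nup and a digit, together with Mtor, Elys, Rae1, Sec13, Gp210, Ndc1 and Aladin. This rule, which used no measured value, gave 28 of the 14237 genes in the table, and all 28 had enough counts to be tested. By the place of their protein in the pore, 10 belong to the outer ring, 6 to the inner ring, 3 to the central channel, 3 to the membrane part, 3 to the cytoplasmic face and 3 to the nuclear basket.

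The pore is a ring-shaped assembly in which outer rings lie on both faces of the envelope, an inner ring lines the opening and membrane proteins anchor the whole. Nucleoporins rich in phenylalanine-glycine repeats fill the channel, and transport receptors driven by the GTPase Ran carry cargo through it. Pores sit within the nuclear lamina, the protein network under the inner nuclear membrane, to which the LEM-domain protein emerin and its chromatin-binding partner BAF belong. In the fly ovary the germ cells build many pores, and nurse cells and oocytes store nucleoporins for the embryo.

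RNA was sequenced from ovaries of newly eclosed females to ask how loss of emerin or BAF changes expression and which changes need the checkpoint kinase Chk2. Each of the 18 libraries came from about 100 pairs of ovaries. Canton S (CS, 4 libraries) and yw (3 libraries) served as wild type. The emerin mutants carried null alleles of the gene Ote over each other in a yw background, as G/PI (2 libraries) and G/PK (2 libraries), and lacked emerin in every cell. Germline knockdown of baf (baf GLKD, 2 libraries) combined a short hairpin RNA with the nosgal4 driver, which acts in germ cells only, and nosgal4 alone (2 libraries) was its control. The chk2, emerin double mutants (3 libraries) carried chk2 (lok) alleles P6 over P30 together with emerin G/PK. Per the labels the baf GLKD flies were kept at 25 °C and all others at room temperature, whereas the study's methods give the same temperature for all crosses. Where the label holds, temperature and knockdown cannot be told apart in that comparison. The hairpin line also had another genetic background than the driver line, which cannot be told apart from the knockdown either. Per the study's methods, replicates were separate RNA isolates, but those methods list 3 for CS, whereas the labels give 4 CS libraries. In the main comparisons p-values measure the spread between the libraries of a fitted group. CS and yw were fitted as a single group, as were G/PI and G/PK, so strain and allele differences are part of that spread.

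Depth was between 18138657 and 28372959 counts per library. Levels are given in CPM, counts scaled for library size with TMM. Ote was at 64.8 to 85.3 CPM in wild type, 11.7 to 59.0 in emerin mutants and 21.6 to 23.1 in chk2, emerin. The gene baf was at 66.4 to 72.5 CPM in baf GLKD and 86.0 to 110.0 in nosgal4, and lok was at 14.3 to 16.0 in chk2, emerin against 194.4 to 247 in wild type. Germ cell markers were present in every genotype, with a summed level of 503 to 5556 CPM over 13 genes. Markers of muscle, hemocytes and fat body were detected in every genotype too, and 1 hemocyte marker was under 0.5 CPM in every wild-type library. Libraries CS 2 and nosgal4 2 stood apart. Of the genes at 10 CPM or more in all other CS libraries, 563 of 6613 (8.51%) were at less than 50% of the lowest of them in CS 2, and 483 of 6672 (7.24%) in nosgal4 2 relative to nosgal4 1. These lists shared 347 genes (61.6% of the first and 71.8% of the second), and they held 5 and 4 pore genes. The same list for yw 2 held 73 of 6641 genes (1.10%), of which 61 were also on that of CS 2. For baf GLKD 2 relative to baf GLKD 1 it held 317 of 7319 genes (4.33%). Neither of these held a pore gene.

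The 28 genes were all detected in every wild-type library. Levels of different genes were compared per length, in TPM, a transcript abundance scaled for length and depth. Sec13, which is also a subunit of the COPII vesicle coat, was highest at 136 ± 27.2 TPM (SD, n = 7). Nup358 followed at 73.7 ± 25.4 and Nup50 at 70.6 ± 10.9, a difference within their spread. The lowest were Nup188 at 16.8 ± 6.03 and Elys at 14.9 ± 8.75, and below Sec13 no neighbours in the order differed by more than the larger of their SDs. The genes lie on arms 2L (3 genes), 2R (10), 3R (9) and the X chromosome (6), by the BDGP6.54 annotation. Nup37 (3R, 25247658 to 25249100) and Nup358 (3R, 25249348 to 25258672) are neighbours on the same strand with 247 bases between them. Their longest coding sequences were long, with a median of 2428.5 bases against 1176 over all coding genes in the table. A total of 14 of the 28 overlap another annotated gene, mostly on the other strand. Overlap was counted over whole genes, introns and small RNA genes included. Reads from exon sequence shared by genes on opposite strands cannot be told apart without strand information, and the extent of such sequence was not measured.

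**Figure D1:**
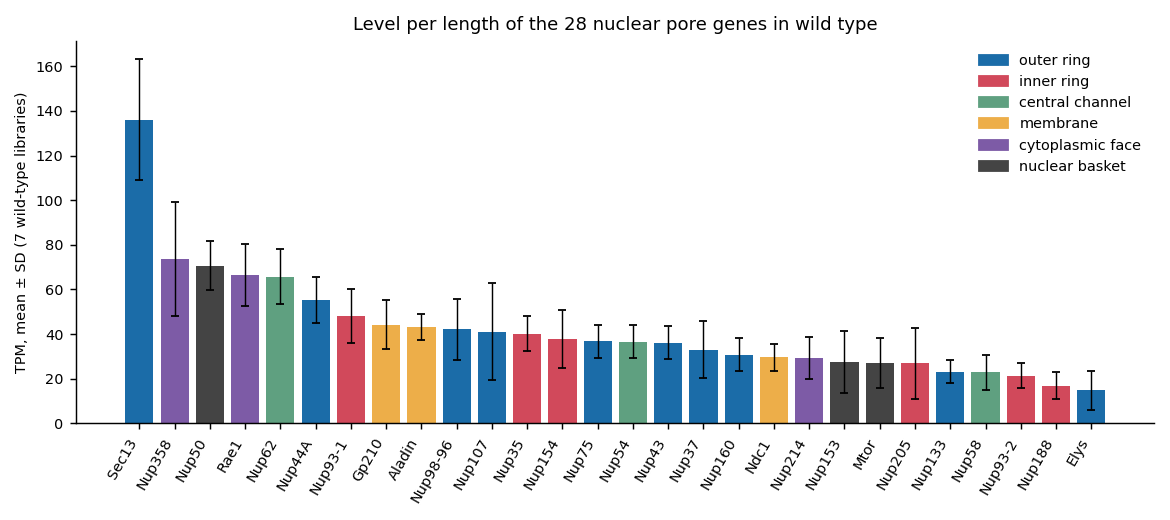
Bars give the mean level in TPM over the 7 wild-type libraries and error bars the SD, with colours for the part of the pore. Sec13 at 136 TPM stands above the other 27 genes, which run from 73.7 TPM (Nup358) down to 14.9 TPM (Elys).

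Loss of emerin was accompanied by lower levels of most pore genes. In emerin against wild type, 20 of the 28 genes were downregulated (71.4%) and none was upregulated, where 26.6% of all 12762 genes tested were downregulated and 28.3% upregulated (edgeR quasi-likelihood test, adjusted p under 0.05). No pore gene was higher at an unadjusted p under 0.05 or by DESeq2 either. All 28 log2 fold changes were below 0, from -1.39 (Gp210) to -0.26 (Sec13), with a median of -0.77 against 0.12 over all genes. The downregulated genes came from every part of the pore, with 6 of 10 in the outer ring, 5 of 6 in the inner ring, 2 of 3 in the central channel, 3 of 3 in the membrane part, 3 of 3 at the cytoplasmic face and 1 of 3 in the nuclear basket. Those that did not pass the test were Elys, Mtor, Nup107, Nup153, Nup205, Nup44A, Nup58 and Sec13. For 19 genes all 4 emerin libraries lay below all 7 wild-type libraries, which held for 17.2% of all genes.

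**Figure D2:**
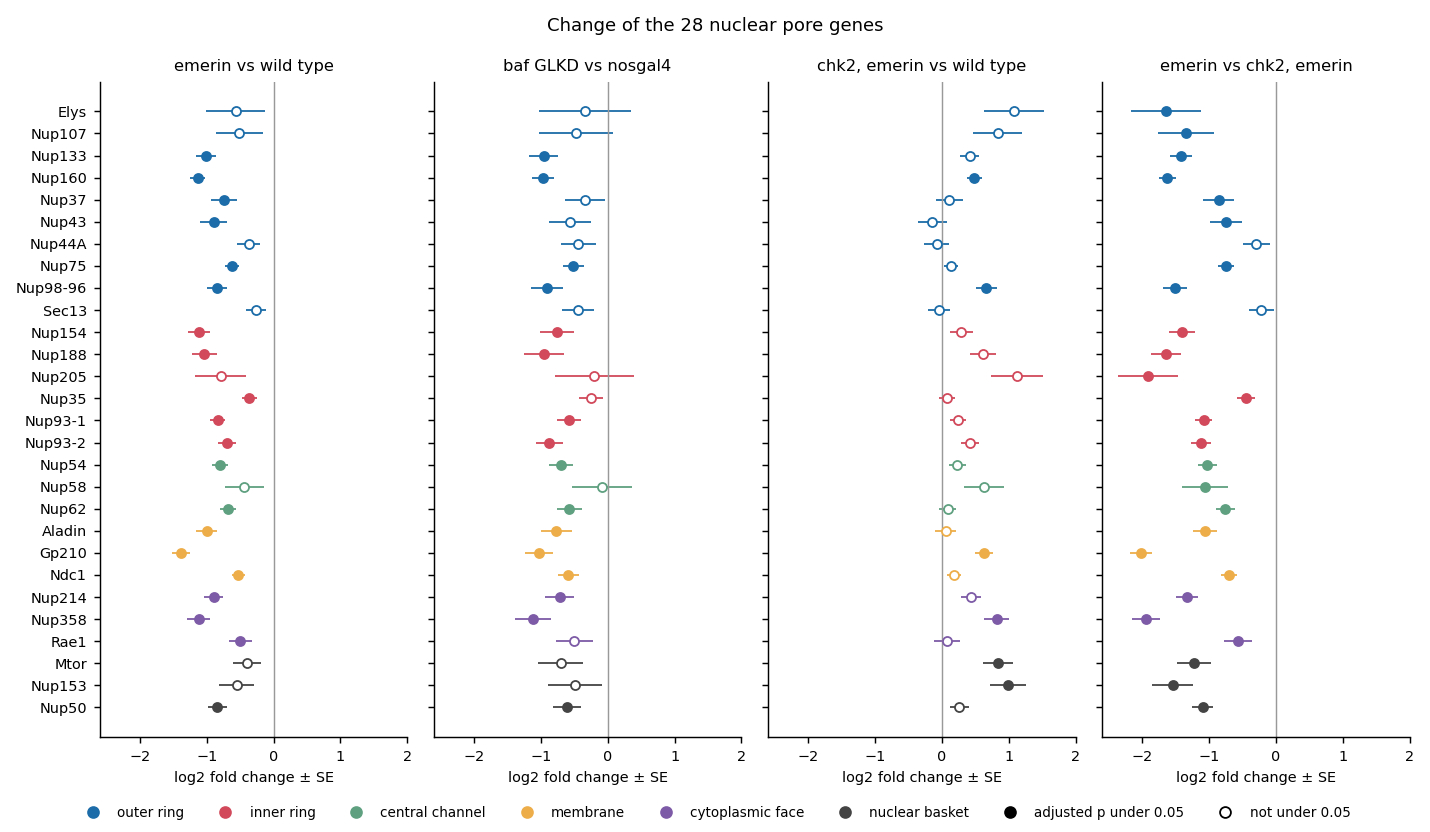
Points give the log2 fold change of each gene and bars its SE in the 4 main comparisons, with colours for the part of the pore and filled points for an adjusted p under 0.05. In emerin 20 points are filled, all below 0, in baf GLKD 16, all below 0, in chk2, emerin 6, all above 0, and in emerin against chk2, emerin 26, all below 0.

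The cell type markers moved in the same libraries. Of 13 germ cell markers, such as vas, aub and orb, 11 fell and 1 (bgcn) rose in emerin, and their summed level was 503 to 1825 CPM against 3748 to 5556 in wild type. Of 9 muscle markers 8 rose (27281 to 31431 CPM in emerin, 3396 to 7150 in wild type), as did 6 of 6 hemocyte markers (899 to 1644 against 42.3 to 242) and 6 of 6 fat body markers (659 to 1986 against 50.4 to 366). Of 10 somatic gonad markers 5 rose and 2 fell (788 to 1250 CPM against 310.1 to 573), and of 8 late egg chamber markers 2 rose (422 to 2432 against 217 to 1471). In RNA of whole ovaries, fewer cells of a type and less RNA per cell cannot be told apart, and the part of the markers in the change of pore genes was not tested.

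Germline knockdown of baf was accompanied by lower levels of pore genes as well. In baf GLKD against nosgal4, 16 of the 28 genes were downregulated (57.1%) and none was upregulated (none at an unadjusted p either, nor by DESeq2), where 8.28% of all genes were downregulated and 13.3% upregulated. The log2 fold changes ran from -1.12 (Nup358) to -0.09 (Nup58), with a median of -0.58 against 0.11 over all genes. The downregulated genes were 4 of 10 in the outer ring, 4 of 6 in the inner ring, 2 of 3 in the channel, 3 of 3 in the membrane part, 2 of 3 at the cytoplasmic face and 1 of 3 in the basket. Both baf GLKD libraries lay below both nosgal4 libraries for 20 genes, which held for 30.7% of all genes. Germ cell markers fell in 5 of 13 genes (2101 to 2291 CPM against 5179 to 5261 in nosgal4), and 7 of 9 muscle (14228 to 16174 against 2823 to 3943), 4 of 6 hemocyte (496 to 730 against 30.6 to 56.9) and 6 of 6 fat body markers (671 to 954 against 73.5 to 86.8) rose, as did 5 of 10 somatic gonad markers (796 to 974 against 235 to 360). None of 8 late egg chamber markers passed, although their summed level was 1759.5 to 2994 CPM against 483 to 775. Their part in the change of pore genes was not tested. With 2 libraries a group the count rested on each of them. It fell when any of them was left out, where the lone library was assumed to vary like the other groups. Over all genes fewer were downregulated as well without nosgal4 1, nosgal4 2 or baf GLKD 1. The median log2 fold change of the pore genes was -0.65 without nosgal4 1, -0.76 without nosgal4 2 and -0.57 without baf GLKD 1. Over all genes these medians were 0.18, 0.12 and -0.03. With scaling by library size only, 6 pore genes were downregulated, where 444 of all 12762 genes were. With complete transcript tables only, which left baf GLKD 2 against nosgal4 2, the library that stood apart, 5 genes were lower and 1, Elys, was higher, by the spread within the other groups. Only Nup160 and Gp210 passed under every alternative.

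No pore gene differed in its change between baf GLKD and emerin by the main test. In the test of the difference between both effects, which share no library, 0 of 28 pore genes passed (0 at an unadjusted p under 0.05 and 0 by DESeq2), and 0.047% of all genes did. The differences of log2 fold changes ran from -0.31 to 0.59 with a median of 0.10, which equals the 0.10 over all genes.

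Without Chk2 no pore gene was downregulated, and some were above wild type. In chk2, emerin against wild type none of the 28 genes was downregulated (none at an unadjusted p under 0.05 and none by DESeq2), and 6 were upregulated (21.4%), where 2.82% of all genes were upregulated and 4.76% downregulated. The upregulated genes were Gp210, Mtor, Nup153, Nup160, Nup358 and Nup98-96. The log2 fold changes ran from -0.14 (Nup43) to 1.13 (Nup205), with a median of 0.35 against -0.07 over all genes, and 25 of 28 were above 0. All 3 chk2, emerin libraries lay above all 7 wild-type libraries for 11 genes, which held for 6.43% of all genes. No germ cell marker passed the test in either direction, and their summed level was 4991 to 5332 CPM against 3748 to 5556 in wild type. Muscle markers were at 4218 to 5268 CPM (2 of 9 fell), hemocyte markers at 94.7 to 137 (none passed) and fat body markers at 109.7 to 134.7 (1 of 6 fell).

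The size of the change in chk2, emerin went with the length of the transcript. The 6 upregulated genes had effective lengths between 4156 and 8284 bases. Among the 14 longer pore genes (2446 bases or more) the median log2 fold change was 0.65 and 6 were upregulated, and among the 14 shorter ones it was 0.10 and none was. All tested genes of these lengths had a median of 0.23 and 7.0% upregulated over 3298 genes of the longer range, and -0.08 and 1.58% over 5375 genes of the shorter range. After removal of each library's trend of counts with length, no pore gene was upregulated or downregulated in chk2, emerin, and the medians were 0.12 and 0.14. The count of upregulated pore genes was also 0 with only the compared groups in the fit and without chk2, emerin 1 or chk2, emerin 3. No pore gene kept its call under every alternative.

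**Figure D3:**
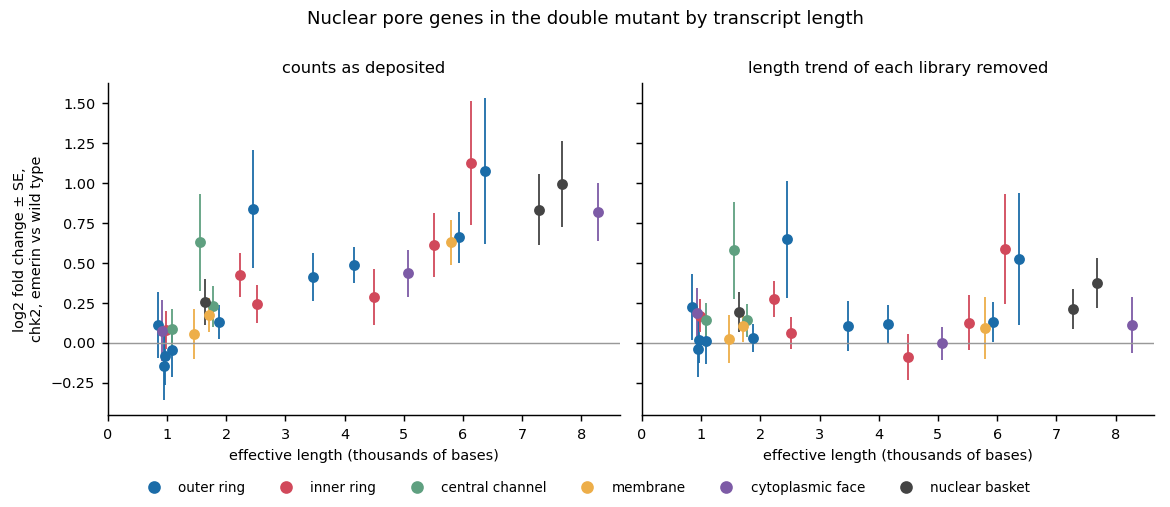
Points give the log2 fold change in chk2, emerin against wild type with its SE (vertical axis) against the effective transcript length in kb (horizontal axis), before (left) and after (right) removal of each library's length trend. Before removal the longer 14 genes have a median of 0.65 and the shorter 14 one of 0.10, and afterwards the medians are 0.12 and 0.14.

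Directly compared, pore genes were lower with Chk2 present than absent, both without emerin. In emerin against chk2, emerin 26 of the 28 genes were lower (92.9%) and none was higher (none at an unadjusted p, nor by DESeq2), where 22.7% of all genes were lower and 26.4% higher. Sec13 and Nup44A did not pass. The log2 fold changes ran from -2.02 (Gp210) to -0.22 (Sec13), with a median of -1.11 against 0.25 over all genes. All 4 emerin libraries lay below all 3 chk2, emerin libraries for 26 genes, which held for 27.2% of all genes. After removal of the length trend 26 genes were still lower, with medians of -1.18 for the longer and -0.82 for the shorter genes. In this comparison 11 of 13 germ cell markers were lower and 1 higher, and 8 of 9 muscle, 5 of 6 hemocyte and 6 of 6 fat body markers were higher. Of 10 somatic gonad markers 7 were higher and 2 lower (788 to 1250 CPM against 376 to 611). Their part in the change of pore genes was not tested. The comparison uses the same emerin libraries as the one with wild type, and both mutant genotypes are compared with wild type through the same 7 libraries.

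In the outer ring, the Y-shaped complex that scaffolds both faces of the pore, Nup160 had the smallest adjusted p of all pore genes in 3 of the 4 comparisons. Nup160 was at 168, 166, 132 and 139.8 CPM in CS and at 134, 178 and 137 in yw. Nup160 stood at 75.1 and 63.8 in emerin G/PI, 66.9 and 68.1 in emerin G/PK, 199 and 180.4 in nosgal4, 90.5 and 103 in baf GLKD and 234, 195 and 205 in chk2, emerin. Every emerin library was below every wild-type library, baf GLKD was below nosgal4, and chk2, emerin was above wild type. It changed by -1.14 (edgeR adjusted p = 5.09e-07, SE 0.11) on the log2 scale in emerin and by -0.97 (edgeR adjusted p = 0.00118, SE 0.17) in baf GLKD. In chk2, emerin it was 0.49 (edgeR adjusted p = 0.0182, SE 0.11), and emerin against chk2, emerin gave -1.62 (edgeR adjusted p = 1.09e-07, SE 0.13). Nup133, which joins neighbouring Y complexes into a ring, followed the same order. Nup133 was at 107, 109, 80.6 and 80.1 CPM in CS and at 108, 106 and 76.6 in yw. Nup133 stood at 59.3 and 43.9 in emerin G/PI, 43.0 and 42.8 in emerin G/PK, 134 and 99.8 in nosgal4, 59.3 and 60.97 in baf GLKD and 140.1, 114 and 126 in chk2, emerin. The groups did not overlap in any of the 4 comparisons, although the difference in chk2, emerin did not pass. Nup133 had log2 fold changes of -1.01 (edgeR adjusted p = 2.19e-05, SE 0.14) in emerin and -0.96 (edgeR adjusted p = 0.00735, SE 0.22) in baf GLKD, and of 0.41 (edgeR adjusted p = 0.0947, SE 0.15) in chk2, emerin.

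Nup98-96 encodes a precursor that is cut into the mobile channel protein Nup98 and the outer ring protein Nup96, and is known in flies for a role in male germline stem cells. Nup98-96 was at 368, 273, 281 and 292 CPM in CS and at 205, 348 and 263 in yw. Nup98-96 stood at 156 and 152 in emerin G/PI, 167 and 170.3 in emerin G/PK, 479.9 and 381 in nosgal4, 207 and 252 in baf GLKD and 557, 388 and 431 in chk2, emerin. Each emerin library was below each wild-type library, and each nosgal4 and chk2, emerin library was above them. The log2 fold changes of Nup98-96 were -0.85 (edgeR adjusted p = 0.000202, SE 0.15) in emerin, -0.91 (edgeR adjusted p = 0.0134, SE 0.24) in baf GLKD and 0.66 (edgeR adjusted p = 0.0209, SE 0.16) in chk2, emerin. It was the pore gene with the largest value in nosgal4 against wild type, 0.57 (edgeR adjusted p = 0.283, SE 0.18), which did not pass.

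Nup107, a core subunit of the Y complex, and Elys, the DNA-binding protein that starts pore assembly on chromatin after mitosis, did not pass in emerin. Nup107 was at 189, 28.4, 129 and 117 CPM in CS and at 146, 91.3 and 122 in yw. Nup107 stood at 116 and 70.9 in emerin G/PI, 70.2 and 72.6 in emerin G/PK, 169.5 and 72.98 in nosgal4, 81.9 and 92.1 in baf GLKD and 248, 179 and 203 in chk2, emerin. The groups overlapped, with CS 2 below every emerin library and emerin G/PI 1 above CS 2 and yw 2. Elys was at 180.5, 24.0, 131 and 133 CPM in CS and at 125, 63.2 and 107 in yw. Elys stood at 74.01 and 61.7 in emerin G/PI, 80.4 and 78.3 in emerin G/PK, 211 and 36.2 in nosgal4, 94.1 and 101 in baf GLKD and 272, 189 and 229 in chk2, emerin. Elys in CS 2 and nosgal4 2 was the lowest of all its libraries, and the 3 chk2, emerin libraries were all above every wild-type library. The log2 fold changes in emerin were -0.51 (edgeR adjusted p = 0.227, SE 0.35) for Nup107 and -0.57 (edgeR adjusted p = 0.283, SE 0.44) for Elys. Both were lower in emerin than in chk2, emerin, at -1.35 (edgeR adjusted p = 0.0138, SE 0.42) for Nup107 and -1.64 (edgeR adjusted p = 0.0159, SE 0.52) for Elys.

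Nup44A, the fly Seh1, which is needed in the female germline for oocyte fate, and Sec13 passed in none of the 4 comparisons. Nup44A was at 57.5, 59.8, 71.7 and 49.97 CPM in CS and at 63.4, 55.1 and 89.4 in yw. Nup44A stood at 50.02 and 48.9 in emerin G/PI, 50.9 and 47.5 in emerin G/PK, 49.7 and 83.6 in nosgal4, 39.0 and 59.4 in baf GLKD and 52.95, 64.9 and 63.5 in chk2, emerin. Except for CS 4 at 49.97 CPM, all wild-type libraries were above the emerin libraries, and nosgal4 and baf GLKD overlapped. Nup44A had log2 fold changes of -0.37 (edgeR adjusted p = 0.0712, SE 0.17) in emerin and -0.29 (edgeR adjusted p = 0.235, SE 0.20) in emerin against chk2, emerin. Sec13 was at 201, 170.4, 175 and 132 CPM in CS and at 214, 156 and 179 in yw. Sec13 stood at 179 and 138 in emerin G/PI, 128 and 139.5 in emerin G/PK, 166 and 184 in nosgal4, 114 and 142 in baf GLKD and 126, 182 and 201 in chk2, emerin. The groups of Sec13 overlapped in 3 of the 4 comparisons and none of its differences passed, with -0.26 (edgeR adjusted p = 0.146, SE 0.15) in emerin and -0.45 (edgeR adjusted p = 0.191, SE 0.24) in baf GLKD.

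Nup43, Nup37 and Nup75 are further subunits of the outer ring. Nup43 was at 40.1, 42.5, 39.0 and 28.8 CPM in CS and at 70.7, 34.5 and 36.5 in yw. Nup43 stood at 28.1 and 20.1 in emerin G/PI, 19.9 and 21.7 in emerin G/PK, 34.6 and 45.0 in nosgal4, 25.3 and 28.7 in baf GLKD and 33.7, 38.3 and 41.2 in chk2, emerin. Library yw 1 was the highest, and all emerin libraries were below all wild-type libraries. Nup43 fell in emerin, -0.89 (edgeR adjusted p = 0.0013, SE 0.20), and its value in chk2, emerin, -0.14 (edgeR adjusted p = 0.702, SE 0.21), was the lowest of the 28 genes. Nup37 (16.0 to 21.9 CPM in emerin, 23.1 to 43.5 in wild type) and Nup75 (47.5 to 62.3 against 72.6 to 89.8), the fly counterpart of vertebrate Nup85, also fell in emerin, by 0.75 and 0.62 on the log2 scale, and Nup75 fell in baf GLKD by 0.52.

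In the inner ring, Nup154, the fly counterpart of vertebrate Nup155 that is required for fertility in both sexes, was lower in both lamina mutants. Nup154 was at 241, 231, 183 and 203 CPM in CS and at 108, 229 and 179.9 in yw. Nup154 stood at 96.01 and 85.9 in emerin G/PI, 87.1 and 92.6 in emerin G/PK, 245 and 211 in nosgal4, 133 and 137 in baf GLKD and 261, 228 and 230.4 in chk2, emerin. Library yw 1 was well below the other wild-type libraries, yet above every emerin library. Nup154 changed by -1.12 (edgeR adjusted p = 3.89e-05, SE 0.17) in emerin, -0.76 (edgeR adjusted p = 0.0466, SE 0.26) in baf GLKD and 0.29 (edgeR adjusted p = 0.308, SE 0.17) in chk2, emerin, and the call in baf GLKD was lost in 20 of 31 alternatives.

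Nup93-1 and Nup93-2 are paralogs that link the inner ring to the channel, and reads shared between them were divided by the authors' quantification. Nup93-1 was at 165, 162, 134 and 134 CPM in CS and at 130.2, 149 and 123 in yw. Nup93-1 stood at 99.2 and 70.6 in emerin G/PI, 72.8 and 76.8 in emerin G/PK, 156 and 144 in nosgal4, 97.9 and 103 in baf GLKD and 171, 168 and 168 in chk2, emerin. Nup93-2 was at 69.4, 55.1, 54.7 and 54.4 CPM in CS and at 51.5, 55.2 and 51.1 in yw. For both genes all emerin libraries were below all wild-type libraries. Nup93-2 stood at 43.7 and 29.1 in emerin G/PI, 34.0 and 31.3 in emerin G/PK, 68.5 and 60.5 in nosgal4, 32.4 and 38.2 in baf GLKD and 87.9, 61.8 and 75.4 in chk2, emerin. Nup93-1 changed by -0.84 (edgeR adjusted p = 1.33e-05, SE 0.11) in emerin and -0.58 (edgeR adjusted p = 0.0261, SE 0.17) in baf GLKD, and Nup93-2 by -0.69 (edgeR adjusted p = 0.000285, SE 0.13) and -0.87 (edgeR adjusted p = 0.00787, SE 0.20). In chk2, emerin neither passed, at 0.25 (edgeR adjusted p = 0.202, SE 0.12) for Nup93-1 and 0.42 (edgeR adjusted p = 0.0672, SE 0.14) for Nup93-2. In TPM the mean of Nup93-1 was above that of Nup93-2 in each of the 7 genotypes.

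Nup205, a large scaffold protein of the inner ring, had the highest log2 fold change in chk2, emerin. Nup205 was at 306, 58.6, 243 and 249.7 CPM in CS and at 218, 86.2 and 166 in yw. Nup205 stood at 117 and 91.95 in emerin G/PI, 116 and 114 in emerin G/PK, 219 and 75.4 in nosgal4, 124 and 132 in baf GLKD and 525, 323 and 396 in chk2, emerin. All 3 double mutant libraries were above all wild-type libraries, and CS 2, yw 2 and nosgal4 2 were the lowest of their genotypes. Nup205 had 1.13 (edgeR adjusted p = 0.0827, SE 0.39) in chk2, emerin and -0.79 (edgeR adjusted p = 0.0875, SE 0.38) in emerin, neither of which passed, and -1.92 (edgeR adjusted p = 0.00212, SE 0.45) in emerin against chk2, emerin. Its structural relative Nup188 (48.95 to 56.99 CPM in emerin, 59.4 to 144 in wild type) fell by 1.03 in emerin and by 0.96 in baf GLKD. Nup35, a membrane-binding subunit of the ring (31.2 to 39.8 CPM in emerin, 40.4 to 54.3 in wild type), fell by 0.37 in emerin and did not pass in baf GLKD, at -0.25 (edgeR adjusted p = 0.333, SE 0.18).

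The trimer of Nup62, Nup58 and Nup54 carries repeats that fill the central channel. Nup54 was at 37.4 to 57.6 CPM in emerin and 68.8 to 86.3 in wild type, and Nup62 at 44.7 to 66.4 and 69.6 to 94.3, with no overlap for either. Nup54 fell in emerin, -0.80 (edgeR adjusted p = 3.72e-05, SE 0.12), and in baf GLKD, -0.70 (edgeR adjusted p = 0.0146, SE 0.19), and Nup62 fell in both, by 0.68 and 0.57. The call of Nup62 in baf GLKD was lost in 13 of 31 alternatives. Nup58 was at 48.5, 14.6, 50.9 and 39.4 CPM in CS and at 49.9, 40.7 and 51.6 in yw. Nup58 stood at 39.7 and 26.1 in emerin G/PI, 30.5 and 28.3 in emerin G/PK, 59.8 and 24.3 in nosgal4, 34.9 and 44.2 in baf GLKD and 72.2, 54.1 and 69.7 in chk2, emerin. CS 2 was the lowest wild-type library and nosgal4 2 was below both baf GLKD libraries. Nup58 had -0.44 (edgeR adjusted p = 0.207, SE 0.29) in emerin and -0.09 (edgeR adjusted p = 0.914, SE 0.45) in baf GLKD, the value nearest to 0 there.

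Of the membrane proteins, the glycoprotein Gp210 had the lowest log2 fold change of the pore genes in emerin, against wild type and against chk2, emerin. Gp210 was at 315, 324, 231 and 292 CPM in CS and at 292, 411 and 265 in yw. Gp210 stood at 127 and 109 in emerin G/PI, 107 and 121 in emerin G/PK, 451 and 363 in nosgal4, 194 and 205 in baf GLKD and 512, 429 and 471 in chk2, emerin. The highest emerin library was at 127 CPM and the lowest wild-type library at 230.5 CPM, and all chk2, emerin libraries were above all wild-type libraries. Gp210 had -1.39 (edgeR adjusted p = 7.67e-07, SE 0.14) in emerin and -1.03 (edgeR adjusted p = 0.00388, SE 0.21) in baf GLKD. It had 0.63 (edgeR adjusted p = 0.0156, SE 0.14) in chk2, emerin, and -2.02 (edgeR adjusted p = 1.32e-07, SE 0.16) in emerin against chk2, emerin, a 4.04-fold difference. Ndc1, the transmembrane protein that anchors the ring, was at 37.4 to 43.3 CPM in emerin and 49.2 to 66.02 in wild type, and fell by 0.53 in emerin and by 0.59 in baf GLKD. Aladin, which Ndc1 holds at the pore, was at 32.8 to 51.6 CPM in emerin and 58.1 to 103 in wild type, and fell by 1.00 and 0.77. Neither passed in chk2, emerin, at 0.18 (edgeR adjusted p = 0.306, SE 0.11) for Ndc1 and 0.06 (edgeR adjusted p = 0.854, SE 0.16) for Aladin.

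At the cytoplasmic face, Nup358, the SUMO ligase and Ran-binding protein of the filaments, followed Sec13 in the order of TPM. Nup358 was at 915, 748, 663 and 673 CPM in CS and at 465, 903 and 592 in yw. Nup358 stood at 296 and 296 in emerin G/PI, 338 and 371 in emerin G/PK, 1168 and 908 in nosgal4, 467 and 489.9 in baf GLKD and 1515, 1036 and 1195 in chk2, emerin. In yw 1 it was lowest among the wild-type libraries, although above all emerin libraries, and the double mutants were above all of them. Nup358 had -1.12 (edgeR adjusted p = 6.49e-05, SE 0.18) in emerin and -1.12 (edgeR adjusted p = 0.0103, SE 0.28) in baf GLKD, the lowest value there. In chk2, emerin it had 0.82 (edgeR adjusted p = 0.0148, SE 0.18), the smallest adjusted p of the 28 genes in that comparison, and -1.94 (edgeR adjusted p = 1.87e-06, SE 0.21) in emerin against chk2, emerin. Nup214, a docking site for export complexes, was at 85.01 to 101 CPM in emerin and 119 to 209 in wild type, and fell by 0.89 in emerin and by 0.72 in baf GLKD. Rae1, an mRNA export factor that binds Nup98, fell by 0.50 in emerin, but emerin G/PI 1 at 79.1 CPM overlapped wild type at 53.8 to 89.7, and in baf GLKD it did not pass, at -0.50 (edgeR adjusted p = 0.205, SE 0.28).

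The nuclear basket holds Mtor (Megator, the fly Tpr), Nup153 and Nup50, which binds importin alpha. Mtor was at 318, 206, 210.5 and 252 CPM in CS and at 129.7, 271 and 189 in yw. Mtor stood at 161 and 154 in emerin G/PI, 178 and 193 in emerin G/PK, 391 and 253 in nosgal4, 189 and 207 in baf GLKD and 534, 308 and 362 in chk2, emerin. Nup153 was at 380.1, 120.5, 266 and 289.9 CPM in CS and at 179, 262 and 194 in yw. In both genes CS 1 and the double mutants were high, and emerin overlapped wild type. Nup153 stood at 128 and 162 in emerin G/PI, 179 and 189 in emerin G/PK, 419.6 and 215 in nosgal4, 207 and 244 in baf GLKD and 584, 398 and 462 in chk2, emerin. Mtor had -0.39 (edgeR adjusted p = 0.124, SE 0.21) and Nup153 -0.55 (edgeR adjusted p = 0.0807, SE 0.26) in emerin, neither of which passed with all libraries, and both of which passed after removal of the length trend. Both rose in chk2, emerin, by 0.83 (edgeR adjusted p = 0.0339, SE 0.22) for Mtor and 0.99 (edgeR adjusted p = 0.036, SE 0.27) for Nup153. After removal of the length trend neither rise passed, at 0.21 (edgeR adjusted p = 0.347, SE 0.12) for Mtor and 0.38 (edgeR adjusted p = 0.183, SE 0.16) for Nup153. These calls were lost in 11 of 34 alternatives for Mtor and 12 of 34 for Nup153. Nup50 was at 66.2 to 103 CPM in emerin and 107 to 155 in wild type without overlap. It fell in emerin, -0.84 (edgeR adjusted p = 7.74e-05, SE 0.14), and in baf GLKD, -0.61 (edgeR adjusted p = 0.0479, SE 0.21), and did not pass in chk2, emerin, at 0.26 (edgeR adjusted p = 0.269, SE 0.14). The call of Nup50 in baf GLKD was lost in 22 of 31 alternatives.

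**Figure D4:**
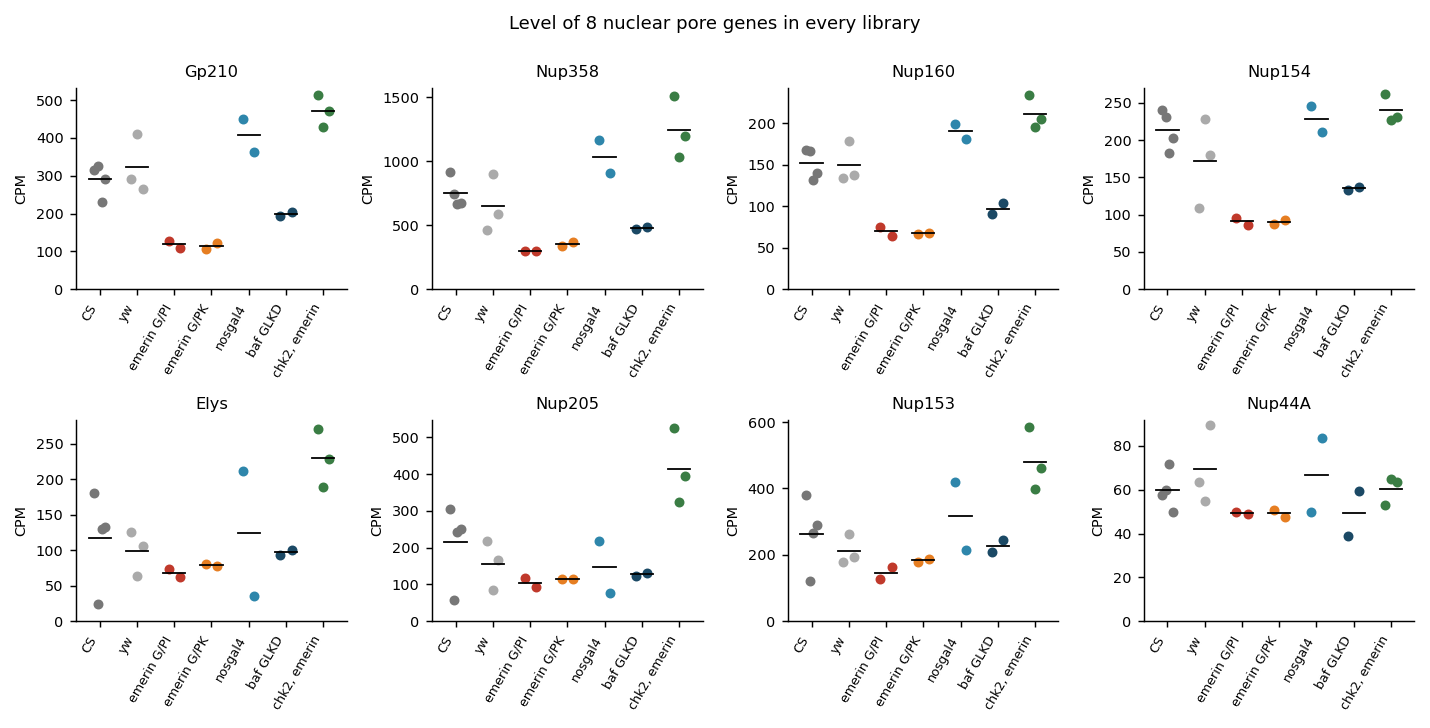
Each point is the level of a gene in 1 library in CPM (vertical axis, from 0), by genotype, and the line is the mean of the genotype. Gp210, Nup358, Nup160 and Nup154 are lower in both emerin genotypes than in CS and yw, whereas Elys and Nup205 show low points in CS 2 and nosgal4 2 and Nup153 in CS 2, and Nup44A overlaps.

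The 5 pore genes that were low in CS 2 (Elys, Nup107, Nup205, Nup58 and Nup153) were among the 8 that did not pass in emerin. As they were picked for low levels in a wild-type library, leaving that library out was bound to lower their values in emerin against wild type. With CS 2, yw 2 and nosgal4 2 left out together, an alternative chosen after seeing the data, all 5 passed in emerin, with log2 fold changes of -0.88 for Elys, -0.77 for Nup107, -1.11 for Nup205, -0.62 for Nup58 and -0.67 for Nup153 (edgeR adjusted p from 0.000204 to 0.0177). Nup44A passed as well, at -0.43 (edgeR adjusted p = 0.0431), so that 26 pore genes were lower. Without CS 2 alone, 4 of the 5 passed and Elys did not, at -0.74 (edgeR adjusted p = 0.0877). In baf GLKD, 7 genes were lower without them, with nosgal4 1 as the lone control, and Elys passed at -1.12 (edgeR adjusted p = 0.0223). In chk2, emerin, 8 genes were higher without them, with Elys at 0.77 and Nup205 at 0.81, which both passed, while Mtor missed the threshold at 0.87 (edgeR adjusted p = 0.0502).

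Few pore genes differed within the emerin genotypes or among the controls. In emerin G/PK against emerin G/PI no pore gene passed (1, Nup54, was lower at an unadjusted p under 0.05 and none passed by DESeq2), and 0.697% of all genes did. In nosgal4 against wild type none passed either (Nup98-96, Nup358, Nup160 and Gp210 were higher at an unadjusted p, and none passed by DESeq2), with 0.196% of all genes. In CS against yw, Nup37 was higher, at 43.5, 36.1, 43.0 and 27.6 CPM in CS and 24.3, 23.1 and 27.4 in yw, with 0.59 (edgeR adjusted p = 0.0493, SE 0.18), where 6.37% of all genes were higher. This call was lost in 24 of 31 alternatives, among them 16 of the 18 that leave out 1 library.

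Genes that work with the pore were tested alongside. A list of 5 pore and mRNA export genes outside the symbol rule held mbo, Gle1, Dbp80, Nxt1 and sbr. Of these, 3 fell in emerin, 2 in baf GLKD and 2 in emerin against chk2, emerin, and 1 rose in chk2, emerin. That gene was mbo, which encodes the fly Nup88, at 60.6 to 88.3 CPM in wild type, 39.8 to 51.2 in emerin and 91.5 to 106 in chk2, emerin, with -0.73 (edgeR adjusted p = 0.000116, SE 0.12) and 0.44 (edgeR adjusted p = 0.0491, SE 0.13). Of 15 import and export receptors, 10 fell in emerin and 7 in baf GLKD, 6 rose in chk2, emerin and 13 were lower in emerin than in chk2, emerin. None changed in the other direction in these comparisons. Importin beta, encoded by Fs(2)Ket, was at 241 to 501 CPM in wild type, 158 to 203 in emerin and 495 to 648 in chk2, emerin, with -0.94 (edgeR adjusted p = 0.000199, SE 0.17) and 0.67 (edgeR adjusted p = 0.0324, SE 0.17). The exportin emb (CRM1) had -0.66 (edgeR adjusted p = 0.000764, SE 0.14) in emerin and 0.48 (edgeR adjusted p = 0.0566, SE 0.15) in chk2, emerin, which did not pass. Ranbp9 (Ipo9 in the annotation), an importin, had the smallest adjusted p of the list in emerin, with -0.72 (edgeR adjusted p = 4.24e-05, SE 0.11).

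Of 5 genes of the Ran cycle, 4 fell in emerin, 2 in baf GLKD and 3 in emerin against chk2, emerin, and none passed in chk2, emerin. Over all genes 26.6%, 8.28% and 22.7% were lower in the first 3 of these comparisons. Among the 5, Ntf-2r was only at 0.09 to 0.80 CPM over all libraries and was kept in the counts and the list median. Ran itself was at 869.8 to 1800 CPM in wild type, 557 to 689 in emerin and 1136 to 1204 in chk2, emerin, with -1.02 (edgeR adjusted p = 4.66e-05, SE 0.16) in emerin and -0.05 (edgeR adjusted p = 0.87, SE 0.17) in chk2, emerin. RanGAP, which stimulates hydrolysis of GTP by Ran, was at 149 to 225 CPM in wild type and 67.6 to 103 in emerin, with -1.27 (edgeR adjusted p = 8.65e-07, SE 0.13). The gene Rcc1, which loads Ran with GTP, had -1.53 (edgeR adjusted p = 6.39e-05, SE 0.24) in emerin and -1.09 (edgeR adjusted p = 0.044, SE 0.37) in baf GLKD. The medians over the 3 lists in emerin were -0.66 for the pore and mRNA export genes, -0.62 for the receptors and -1.02 for the Ran cycle. Over all genes the median was 0.12.

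Use of transcripts was also compared. In each of the 14 pore genes with more than 1 transcript and enough TPM, only the transcript with the highest mean share was compared. Its share did not overlap between emerin and wild type in Nup153 alone (7.14%, against 8.13% of 3581 genes), which is near the share over all genes. This transcript, FBtr0299587, made up 29.3 to 39.2% of Nup153 in emerin and 40.5 to 64.8% in wild type. Another transcript of Nup153, FBtr0340158, was at 60.8 to 70.7% in emerin and 33.6 to 48.7% in wild type. The remaining transcript was near 0 in emerin, so this follows from the share of FBtr0299587 and is not a separate result. These shares come from the transcript tables, which are short in some of these libraries.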

How the data were processed

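Per the study's methods, the authors trimmed paired reads with Trim Galore (0.6.6 per the labels), quantified transcripts with kallisto (0.46.1) on BDGP6.32 and combined them by gene through tximeta. Estimated counts for 14237 genes, rounded and not scaled for library size, make up the deposited gene table. Per-transcript estimated counts, TPM and effective lengths were deposited for each library, but in 7 libraries their sum is 7.42 to 18.9 times below that of the gene table, so the gene table was used. The annotation BDGP6.54 gave a symbol for 14194 genes.

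Genes with at least 10 counts over all libraries (12762) entered a quasi-likelihood fit after TMM scaling (edgeR 4.0.16, R 4.3.3), with 1 coefficient per group, CS and yw as 1 wild type, and 1 coefficient per genotype for CS against yw and G/PK against G/PI. Adjusted p is Benjamini-Hochberg over all genes tested, with 0.05 as threshold, and standard errors follow from the F statistics. TPM was made from gene counts and 1 effective length per gene. The procedure was tested on simulated data. Libraries of 1 genotype differed in more than sampling noise (chi-square over its degrees of freedom 17.3 to 217.9).

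The genes, their roles and all lists were chosen with earlier results of these data known. Genes described by library were the 3 with the smallest adjusted p and those with the highest and lowest log2 fold change in each main comparison, and Nup154, Nup107, Nup98-96, Nup44A, Nup93-1, Nup93-2, Elys, Mtor, Gp210 and Nup153. The same rule named Ran, emb, Fs(2)Ket, mbo and, in each list, the gene with the smallest adjusted p in emerin. Rcc1, FBtr0299587 and FBtr0340158 were chosen after their values were seen. Alternatives were DESeq2, RLE, library size only, other filters, transcript table counts, blocks, other references and emerin backgrounds, removal of the length trend (lowess, span 0.3) and each library left out. The symbols Nup42, Pom121, Ranbp3 and Pen were not analysed here.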

Additional observations from a re-analysis of the deposited data

Results flagged for a closer look

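In groups of 4 or 7 libraries of 1 kind (CS, wild type and emerin), 12 of 84 tests found a library far from the nearest other by Dixon's criterion at the 95% level, which chance gives in about 1 of 20. Emerin G/PI 1 was the library concerned in 6 of them, above the other emerin libraries for Nup107 (115.7 CPM), Nup133 (59.27), Aladin (51.57), Rae1 (79.06) and Nup50 (103.1) and below them for Ndc1 (37.39). Emerin G/PI 2 was low for Nup205 (91.95). In wild type, yw 1 was high for Nup43 (70.71) and Aladin (103.1), CS 2 was low for Nup58 (14.61), and CS 1 was high for Nup93-2 (69.39), both among CS and among all wild-type libraries.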

How the results depend on the processing

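For the 28 genes in 8 comparisons, 7448 values under an alternative were compared with the reported ones, of which 7165 kept call and direction, 201 lost a call, 80 gained one and 2 reversed. Complete transcript tables only leave 1 nosgal4 library, nosgal4 2, which stood apart, and 1 baf GLKD library, each assumed to vary like the other groups. Both reversals were Elys in this setting, where nosgal4 2 was at 36.2 CPM and nosgal4 1, left out, at 211 CPM, at 1.48 in baf GLKD against nosgal4 (edgeR adjusted p = 0.0122) and -1.77 in nosgal4 against wild type (edgeR adjusted p = 0.0128). In emerin 18 of 20 calls were kept under every alternative, in baf GLKD 2 of 16, in chk2, emerin 0 of 6 and in emerin against chk2, emerin 20 of 26. With each library left out, the counts were 19 to 24, 2 to 16, 0 to 8 and 22 to 26, and for CS against yw 0 to 1. Without baf GLKD 1 the count in baf GLKD was 2, without nosgal4 1 it was 3, without nosgal4 2 it was 6 and without baf GLKD 2 it was 8. The count in chk2, emerin was 0 without chk2, emerin 1 or 3.

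In baf GLKD the count of downregulated genes was 6 with library size only, 5 (and 1 upregulated) with complete transcript tables only, and 7 without CS 2, yw 2 and nosgal4 2. In chk2, emerin the count of upregulated pore genes was 13 with complete transcript tables only, where 524 of all 11932 genes were upregulated. By DESeq2 it was 11, where 759 of 12702 genes were. It was 0 without the length trend (157 of 12762 genes) and 0 with only the groups compared (131 of 11599 genes). In the main fit 360 of 12762 genes were upregulated. In nosgal4 against wild type 2 genes were lower, and in the test of the difference of effects 2 were higher, with complete transcript tables only and nosgal4 2 as the lone nosgal4 library. In CS against yw the count was 0 with filterByExpr, without a filter, with transcript table counts, with the library set as block, with complete transcript tables only, with only the groups compared and without yw 1 and CS 2, and 2 without CS 2, yw 2 and nosgal4 2, while 1 gene was lower without the length trend. The cause of these moves was not tested.

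Scaling by library size only moved the all-gene median in baf GLKD from 0.11 to 0.29 on the log2 scale, and that in emerin against chk2, emerin from 0.25 to 0.39. The calls over all genes then were 1819 higher and 444 lower in baf GLKD (1692 and 1057 with TMM) 253 and 923 in chk2, emerin (360 and 607) and 1168 and 391 in CS against yw (813 and 773). The median of the pore genes then was -0.41 in baf GLKD and -0.96 in emerin against chk2, emerin. Replicate numbers were not used to pair the libraries in the main fit. Of 45 same-numbered pairs 17 had a correlation over 0.1, with a range from -0.30 to 0.35. The highest value, 0.35, was that of nosgal4 and baf GLKD, which are compared with each other. With the replicate block the counts were 20, 15, 6 and 26 in the 4 main comparisons and 1 in CS against yw. Complete transcript tables exist for 11 libraries, among them all chk2, emerin libraries. The tables are short for CS 1, CS 2, yw 1, yw 2, emerin G/PI 1, nosgal4 1 and baf GLKD 1. With the library set (short or complete) as block, the counts were 21, 15, 8 and 26 in the 4 main comparisons. The lowest level of a pore gene in any library was 14.6 CPM.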
